A study of Sus scrofa with 599 samples.

Results

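Mesenteric fat (MAD) was compared with retroperitoneal fat (RAD) in pigs that had gained and then lost weight. Each depot had 10 RNA-seq and 10 Hi-C samples of the weight-loss (WL) group, which were taken by the names of their columns in the deposited tables. These 20 RNA-seq libraries were part of 236, and the 20 Hi-C samples part of 240, among 599 samples of the series. The animals were adult female Bama pigs, about 2 years old at the start, which ate a high-fat diet for 22 weeks and were then held for 12 weeks at 10% of normal caloric intake. All WL pigs therefore shared the earlier high-fat diet, and no WL sample had a normal diet throughout. The normal-condition (NC) pigs ate a normal diet, and the weight-gain (WG) pigs were examined after 22 weeks of the high-fat diet. The 4 depots were separated from each carcass by hand, so that MAD and RAD came from the same animals, and RNA was extracted from whole frozen tissue. The Hi-C libraries were made from fixed, pulverized tissue, of which only the top layer after a spin, the one with the adipocytes, was kept, so that their cells need not be those behind the RNA.

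Mesenteric fat lies within the folds that carry vessels, lymphatics and lymph nodes to the gut, and retroperitoneal fat lies behind the peritoneum on the dorsal body wall near the kidneys. Fat depots keep a memory of position in the HOX genes, which pattern the body axis, and in other developmental transcription factors that differ between gut-associated and body wall mesoderm. Chromatin in the nucleus falls into an active compartment A and an inactive compartment B, and the A-B index is a score without a unit that is positive in A and negative in B. H3K27ac is a histone mark of active enhancers and promoters.

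The estimated counts on protein-coding genes (PCGs) were 12626380 to 18677197 per library in MAD and 12721994 to 20357269 in RAD. TPM values are relative abundances scaled for transcript length and for library size. The share of the summed TPM that fell on PCGs had a median of 85.4% in MAD (78.6 to 93.8%) and 92.3% in RAD (76.2 to 94.1%). Its median thus differed by depot while the ranges overlapped, and the lowest libraries were RAD 4 and 5. With this share as a covariate, the counts of calls given next were 492 higher in MAD and 145 higher in RAD. MAD libraries 1, 6 and 7 stood apart from the others: their B cell and plasma cell list summed to 2682 to 8119 TPM, against 405 to 664 TPM in the other 7 MAD libraries and 298 to 503 TPM in RAD. Their T cell list summed to 917 to 1965 TPM, against 166 to 299 TPM in the other MAD libraries. Their adipocyte list summed to 4559 to 13515 TPM, against 17131 to 23287 TPM. The pancreas list summed to 0.337 to 3.21 TPM in all 20 libraries, and the skeletal muscle list to 3.37 to 11.5 TPM. Results are given with all 20 libraries and, where they depend on it, without these 3.

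Of 13923 PCGs tested, 802 were higher in MAD and 216 higher in RAD, which is 5.76% and 1.55% of those tested. A call (DEG) needed an adjusted p below 0.05 by edgeR's quasi-likelihood test and a fold change above 1.5, and log2 fold changes are RAD over MAD throughout. With the replicate number as a block, 1017 (7.3%) were higher in MAD and 513 (3.68%) higher in RAD. When MAD libraries 1, 6 and 7 were left out, 246 PCGs (1.77%) were higher in MAD and 55 (0.395%) higher in RAD, and 278 of these 301 were also called with all libraries. Leaving out MAD 1, 6, 7 or 9 or RAD 9 alone moved the count of PCGs higher in RAD to 115, 121, 114, 326 and 143. The total of 1018 went to 689, 670 and 651 without MAD 1, 6 or 7. Over all single removals it ran from 651 to 1324, the highest without MAD 9. The libraries of the depots did not overlap in 65 PCGs (0.467% of those tested), of which 53 were higher in MAD and 12 higher in RAD. The median log2 fold change over all PCGs tested was -0.018. In bulk tissue, fewer cells of a type and less RNA per cell cannot be told apart.

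Several developmental transcription factors separated the depots in every library. NKX2-3, TCF21, NKX3-2 and TBX1 were higher in MAD, and ALX1, EN1, HOXA9 and HOXA10 were higher in RAD, each with no library of one depot reaching the other. Reference sequence at the starts of NKX2-3 and TCF21 is shown because these genes marked MAD plainly. Each window runs from 250 bases before to 50 bases after the RefSeq gene start in Sscrofa11.1, 5′ to 3′ on the strand of the gene, with CG dinucleotides in capitals. NKX2-3 is at chr14:110720134-110720433 on the plus strand, and TCF21 at chr1:29978224-29978523 is on the minus strand.
NKX2-3: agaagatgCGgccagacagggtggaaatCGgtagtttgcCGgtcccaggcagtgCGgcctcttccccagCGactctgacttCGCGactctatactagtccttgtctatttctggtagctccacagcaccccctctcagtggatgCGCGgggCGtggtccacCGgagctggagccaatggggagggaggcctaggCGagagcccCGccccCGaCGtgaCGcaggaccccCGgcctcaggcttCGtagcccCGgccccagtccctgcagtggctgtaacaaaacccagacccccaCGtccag
TCF21: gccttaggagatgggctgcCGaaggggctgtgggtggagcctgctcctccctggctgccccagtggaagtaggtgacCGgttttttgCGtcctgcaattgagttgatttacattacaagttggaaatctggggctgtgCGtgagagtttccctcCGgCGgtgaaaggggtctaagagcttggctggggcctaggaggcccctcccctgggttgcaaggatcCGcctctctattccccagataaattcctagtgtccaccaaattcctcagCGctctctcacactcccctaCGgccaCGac

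The NKX2-3 window held 20 CG dinucleotides and the TCF21 window 10, against a median of 19 over the 13096 windows of this length at PCG starts. Motifs were searched on both strands. TATAAA occurred in neither window and in 8.95% of all windows. CCAAT occurred in the NKX2-3 window and in 34.9% of all windows. GGGCGG also occurred in the NKX2-3 window and in 58.3% of all windows.

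NKX2-3 is a homeobox factor of gut and spleen mesoderm. It was 3.54 to 14.2 TPM in MAD (median 10.1) and 0 to 0.0544 TPM in RAD (median 0). Every MAD library was thus far above every RAD library. The RAD libraries held 3 counts in all against 1996 in MAD, a 667-fold difference after scaling to library totals, with a 95% interval of 228 to 3239 that covers counting error only. The fitted log2 fold change was -8.79 ± 0.432 (SE, n = 10 per depot, edgeR adjusted p = 1.7e-11). NKX3-2, a relative that acts in the mesoderm of the foregut and in the axial skeleton, was 0.434 to 3.1 TPM in MAD (median 1.55) and 0 to 0.11 TPM in RAD. Its single RAD count against 172 in MAD gave a 173-fold difference, with a counting interval of 30.6 to 6855.

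TCF21, a basic helix-loop-helix factor of visceral mesenchyme, was 5.22 to 12 TPM in MAD (median 9.5) and 0.0549 to 1.3 TPM in RAD (median 0.232). The depots did not overlap, and the log2 fold change was -4.50 ± 0.417 (edgeR adjusted p = 5.8e-07). TBX1, a T-box factor of pharyngeal mesoderm that also marks some beige adipocytes, was 3.46 to 9.56 TPM in MAD (median 5.12) and 0.164 to 1.19 TPM in RAD (median 0.445). It too was separated in all libraries, at a log2 fold change of -3.55 ± 0.3 (edgeR adjusted p = 1.8e-07). FOXP2, a forkhead factor, was 5.24 to 26.7 TPM in MAD (median 8.22) and 0.994 to 4.58 TPM in RAD (median 1.84), also without overlap. Its log2 fold change was -2.14 ± 0.297 (edgeR adjusted p = 0.00011).

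In the other direction, ALX1, a homeobox factor of craniofacial and limb mesenchyme, was 2.76 to 9.12 TPM in RAD (median 5.99) and 0 to 0.137 TPM in MAD (median 0). The depots did not overlap, and the log2 fold change was 7.47 ± 0.484 (edgeR adjusted p = 2.4e-09), with 6 counts over all MAD libraries and 1249 over the RAD libraries. EN1, a homeobox factor known from the dorsal dermis and the hindbrain border, was 2.5 to 7.36 TPM in RAD (median 4.55) and 0.0569 to 0.956 TPM in MAD (median 0.601). Its log2 fold change was 3.17 ± 0.329 (edgeR adjusted p = 2.3e-06), and both genes were separated in all 20 libraries.

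**Figure D1:**
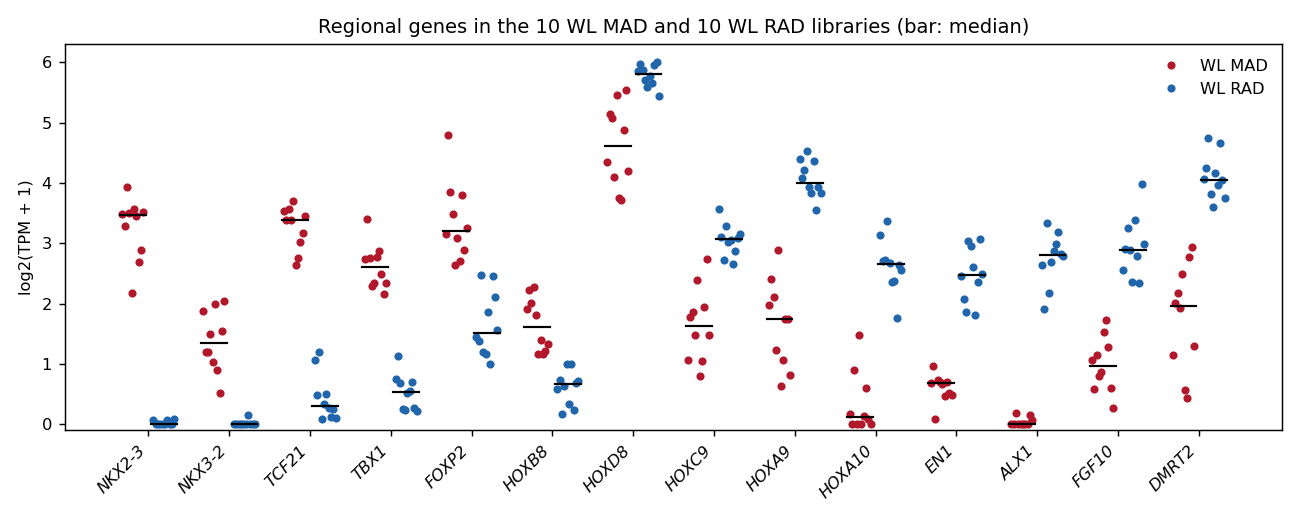
Expression of 14 regional genes on the log2(TPM + 1) scale, with 1 point per library (red, WL MAD; blue, WL RAD; n = 10 each) and a black bar at the median. The 5 genes at the left and HOXB8 sit higher in MAD, and the remaining 8 sit higher in RAD. ALX1 and NKX2-3 lie near 0 in every library of the other depot.

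Over the list of regional transcription factors other than HOX genes, 29 of 53 measured members were tested. Of these, 8 were higher in MAD (NKX2-3, NKX3-2, TCF21, HAND2, FOXF1, GATA6, NR2F2 and SIX2) and 7 were higher in RAD (including ALX1, EN1, TBX18, TBX5, LHX9 and EMX2). HAND2, FOXF1 and GATA6 are factors of gut and lateral plate mesoderm, and TBX18, LHX9 and EMX2 are known from urogenital and epicardial mesenchyme. The list's median log2 fold change was -0.14. In the fit without MAD libraries 1, 6 and 7, 7 members were called higher in MAD and 6 higher in RAD.

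Of 34 HOX genes measured, 23 were tested, and 6 were higher in RAD (HOXA9, HOXA10, HOXC9, HOXD3, HOXD4 and HOXD8) and 5 higher in MAD (including HOXA2, HOXB3, HOXB5 and HOXB8). These are 26.1% and 21.7% of the HOX genes tested, against 1.55% and 5.76% of all PCGs. HOXA10 was 2.39 to 9.34 TPM in RAD (median 5.32) and 0 to 1.77 TPM in MAD (median 0.0783). The highest MAD library lay below the lowest RAD library, and the log2 fold change was 3.88 ± 0.652 (edgeR adjusted p = 0.00098). HOXA9 was 10.7 to 22.1 TPM in RAD (median 15.1) and 0.54 to 6.41 TPM in MAD (median 2.35), again without overlap, at a log2 fold change of 2.68 ± 0.351 (edgeR adjusted p = 5.2e-05).

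At the other end of the same cluster, HOXA2 was 0.206 to 2.77 TPM in MAD (median 1.21) and 0.106 to 0.658 TPM in RAD (median 0.344), with overlap, at a log2 fold change of -1.81 ± 0.37 (edgeR adjusted p = 0.0044). HOXA3, HOXA5 and HOXA7, which lie between HOXA2 and HOXA9, had log2 fold changes of 0.03, 0.24 and -0.16 and did not pass the test. All 7 HOXB genes tested had a negative log2 fold change. HOXB8 was 1.25 to 3.83 TPM in MAD (median 2.08) and 0.119 to 1 TPM in RAD (median 0.577), and every MAD library was above every RAD library. Its log2 fold change was -1.99 ± 0.351 (edgeR adjusted p = 0.0015).

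HOXD3 and HOXD4 were higher in RAD, at log2 fold changes of 0.95 and 0.76 (edgeR adjusted p = 0.01 and 0.022, and 0.1 and 0.15 without MAD libraries 1, 6 and 7), and HOXD9 had -0.25 and did not pass the test (0.56). HOXD8 was 42.5 to 63.3 TPM in RAD (median 55.3) and 12.1 to 45.7 TPM in MAD (median 23.9), with a log2 fold change of 1.06 ± 0.204 (edgeR adjusted p = 0.003), and the depots overlapped slightly. HOXC9 was 5.27 to 10.9 TPM in RAD (median 7.38) and 0.746 to 5.7 TPM in MAD (median 2.1). Its log2 fold change was 1.63 ± 0.29 (edgeR adjusted p = 0.0015). With the replicate block, HOXC8 was also called, at a log2 fold change of 0.67 (edgeR adjusted p = 0.03). Leaving out MAD libraries 1, 6 and 7 gave 4 HOX genes higher in RAD and 4 higher in MAD, and HOXB3 was among the calls lost (log2 fold change -0.78 against -0.80 with all libraries, edgeR adjusted p = 0.2). With the block it was called with all libraries (-0.86, edgeR adjusted p = 0.0059) and without pairs 1, 6 and 7 (-0.67, 0.035). Without the block, the edgeR adjusted p of HOXB3 ranged from 0.02 to 0.095 when each library was left out in turn. It exceeded 0.05, which ended the call, in 15 of the 20 removals, those of MAD 1 to 7 and 10 and of RAD 1, 3 and 6 to 10.

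**Figure D2:**
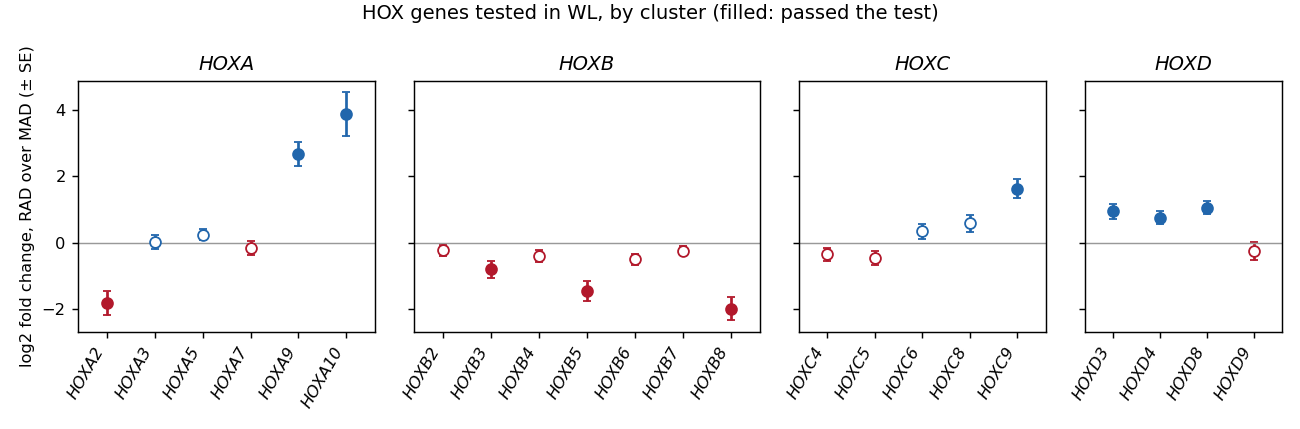
Log2 fold change of RAD over MAD for HOX genes tested, in order along the HOXA, HOXB, HOXC and HOXD clusters (bars, SE from the edgeR fit, n = 10 per depot). Filled points passed the test (adjusted p below 0.05 and fold above 1.5). Values run from -1.81 at HOXA2 to 3.88 at HOXA10 within 1 cluster, and the HOXB points lie below 0.

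The PCGs most raised in RAD also included secreted factors, receptors and enzymes. MMP27, a matrix metalloproteinase, was 10.5 to 34.2 TPM in RAD (median 21) and 0.171 to 3.39 TPM in MAD (median 1.35), without overlap, at a log2 fold change of 3.95 ± 0.405 (edgeR adjusted p = 2.1e-06). FGF10, a mesenchymal growth factor known to promote adipogenesis, was 4.04 to 14.8 TPM in RAD (median 6.43) and 0.199 to 2.32 TPM in MAD (median 0.954). It was also separated in all libraries, at 2.65 ± 0.367 (edgeR adjusted p = 1e-04). DMRT2, a transcription factor of the dermomyotome, had a median of 15.7 TPM in RAD and was 0.344 to 6.66 TPM in MAD (median 2.9), again without overlap (edgeR adjusted p = 0.00034).

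TNFSF9, a ligand of the tumor necrosis factor family, had a median of 14.1 TPM in RAD and 4.64 TPM in MAD, with a log2 fold change of 1.89 ± 0.283. Its receptor TNFRSF9 went the other way, at -4.74 ± 0.929, with 37.5 TPM in the highest MAD library and at most 0.543 TPM in RAD. This receptor was no longer called without MAD libraries 1, 6 and 7 (log2 fold change -1.94, edgeR adjusted p = 0.068). FBP2, the muscle form of fructose-1,6-bisphosphatase, had a median of 61.4 TPM in RAD and 20.8 TPM in MAD (log2 fold change 1.69 ± 0.314). PTGFR, the prostaglandin F receptor that acts against adipogenesis, had medians of 10.5 and 3.67 TPM (1.80 ± 0.385). SFRP4 and WNT2, a WNT antagonist and a WNT ligand, were higher in RAD at 1.27 and 1.67, whereas RSPO1, a WNT potentiator made by mesothelium, was higher in MAD at -2.03. Among the BMP and TGF-beta list, the BMP antagonist GREM1 was 11.2 to 44.5 TPM in MAD (median 31.5) and 2.2 to 16.9 TPM in RAD (median 6.6), a log2 fold change of -2.01 ± 0.324 (edgeR adjusted p = 0.00063).

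Genes of lymphatic endothelium were higher in MAD, and this held without the libraries that stood apart. Of 8 list members tested, 6 were higher in MAD (MMRN1, FLT4, SEMA3D, RELN, PROX1 and CCL21) and none was higher in RAD, with a median log2 fold change of -2.15 against -0.018 over all PCGs. When MAD libraries 1, 6 and 7 were left out, 6 were again higher in MAD and the median was -2.07. FLT4, the receptor of lymphatic growth factors, was 12.4 to 51.3 TPM in MAD (median 20.2) and 3.09 to 11.4 TPM in RAD (median 4.73). RELN, a secreted matrix protein of lymphatic vessels, was 8.02 to 39.8 TPM in MAD (median 13.3) and 1.36 to 7.03 TPM in RAD (median 2.38). Neither gene overlapped between the depots. RELN had a log2 fold change of -2.30 ± 0.305 (edgeR adjusted p = 5.8e-05), and FLT4 had an edgeR adjusted p of 3.9e-05, with a log2 fold change of -1.95 without MAD libraries 1, 6 and 7 (0.00033). CCL21, a chemokine of lymphatic endothelium and lymph node stroma, was 24.8 to 818 TPM in MAD (median 109.7) and 5.19 to 35.1 TPM in RAD (median 10.2), with some overlap. Its 3 highest values, 388, 818 and 606 TPM, were those of MAD libraries 1, 6 and 7.

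Smooth muscle genes were likewise higher in MAD. Of 13 tested, 5 were higher in MAD (DES, ACTG2, KCNMB1, MYLK and CNN1) and none in RAD, and the count was also 5 without MAD libraries 1, 6 and 7, against 5.76% and 1.77% of all PCGs. DES, the intermediate filament of muscle, was 8.86 to 184 TPM in MAD (median 53.1) and 1.57 to 38.3 TPM in RAD (median 3.28). ACTG2, an actin of visceral smooth muscle, was 3.26 to 113 TPM in MAD (median 17.5) and 0.268 to 28.3 TPM in RAD (median 1.94). The depots overlapped in both genes, and replicate 2 was the highest library in each depot. Their log2 fold changes were -3.28 ± 0.558 and -2.68 ± 0.679 (edgeR adjusted p = 0.0011 and 0.017).

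Of 9 mesothelial genes tested, 4 were higher in MAD (PKHD1L1, SBSPON, UPK1B and RSPO1), and 3 without MAD libraries 1, 6 and 7, against 5.76% and 1.77% of all PCGs. The summed TPM of this list nevertheless overlapped widely, at 25.3 to 109 in MAD and 15.6 to 133 in RAD. PI16, a marker of fibroblast progenitors at tissue margins, was 88.3 to 356 TPM in MAD (median 205) and 49.7 to 135 TPM in RAD (median 90.6), a log2 fold change of -1.19 ± 0.222 (edgeR adjusted p = 0.0023). It was the only member of the progenitor list called higher in MAD among 17 tested, and BMP7, SEMA3C and GAP43 were higher in RAD. With all libraries their log2 fold changes were 1.33, 0.88 and 1.06. In the fit without MAD libraries 1, 6 and 7 they were 1.13, 0.60 and 1.16 and did not pass the test (edgeR adjusted p = 0.25, 0.13 and 0.067). Without pairs 1, 6 and 7 and with the block, BMP7 (1.54, edgeR adjusted p = 0.012) and GAP43 (1.08, 0.0093) were called, and SEMA3C (0.52, 0.033) was below the fold required. Leaving out MAD 1 alone ended the call of SEMA3C (0.052), and leaving out any of MAD 1, 5, 6 or 7 or RAD 3, 4, 8, 9 or 10 ended that of BMP7 (up to 0.068).

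Lymphocyte genes were higher in MAD. In the fit without a block, most of these calls were lost without the 3 libraries that stood apart. Of 23 T cell genes tested, 19 were higher in MAD, with a median log2 fold change of -2.85, and of 14 B cell and plasma cell genes 12 were higher in MAD, with a median of -3.06, against 5.76% of all PCGs. With the 3 left out, 3 T cell genes and 4 B cell and plasma cell genes were called, with medians of -0.76 and -0.59, against 1.77% of all PCGs. With those 3 numbers left out in both depots and the replicate block, 19 and 7 were called higher in MAD. MS4A1, the B cell antigen CD20, was 61.9, 236 and 117 TPM in MAD libraries 1, 6 and 7 and 0.734 to 2.77 TPM in the other 7, against 0.234 to 1.18 TPM in RAD. Its log2 fold change was -6.40 ± 1.19 with all libraries (edgeR adjusted p = 0.0023) and -1.65 without the 3 (0.0053).

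JCHAIN, the joining chain of secreted IgA and IgM, was 2108, 2654 and 7366 TPM in the same 3 libraries and 36.4 to 307 TPM in the other MAD libraries, against 17.6 to 95 TPM in RAD. CD79B, a part of the B cell receptor, was 0.987 to 179.9 TPM in MAD and 0 to 0.849 TPM in RAD, and here the depots did not overlap even in the other 7 libraries. The lymph node stroma list had 4 of 4 tested members higher in MAD, 1 without the 3 libraries, and 3 without pairs 1, 6 and 7 with the block. CLEC4G, a lectin of sinusoidal endothelium, had a log2 fold change of -4.42 with all libraries and -1.04 without them (edgeR adjusted p = 0.021 and 0.67), and leaving out MAD 7 alone ended its call (0.052). Outside these lists, ECRG4, a secreted peptide precursor, was called both ways, at -5.88 ± 0.819 with all libraries and -3.92 without the 3 (edgeR adjusted p = 0.00011 and 5.1e-05). Whether lymph node tissue was present in those samples was not tested.

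**Figure D3:**
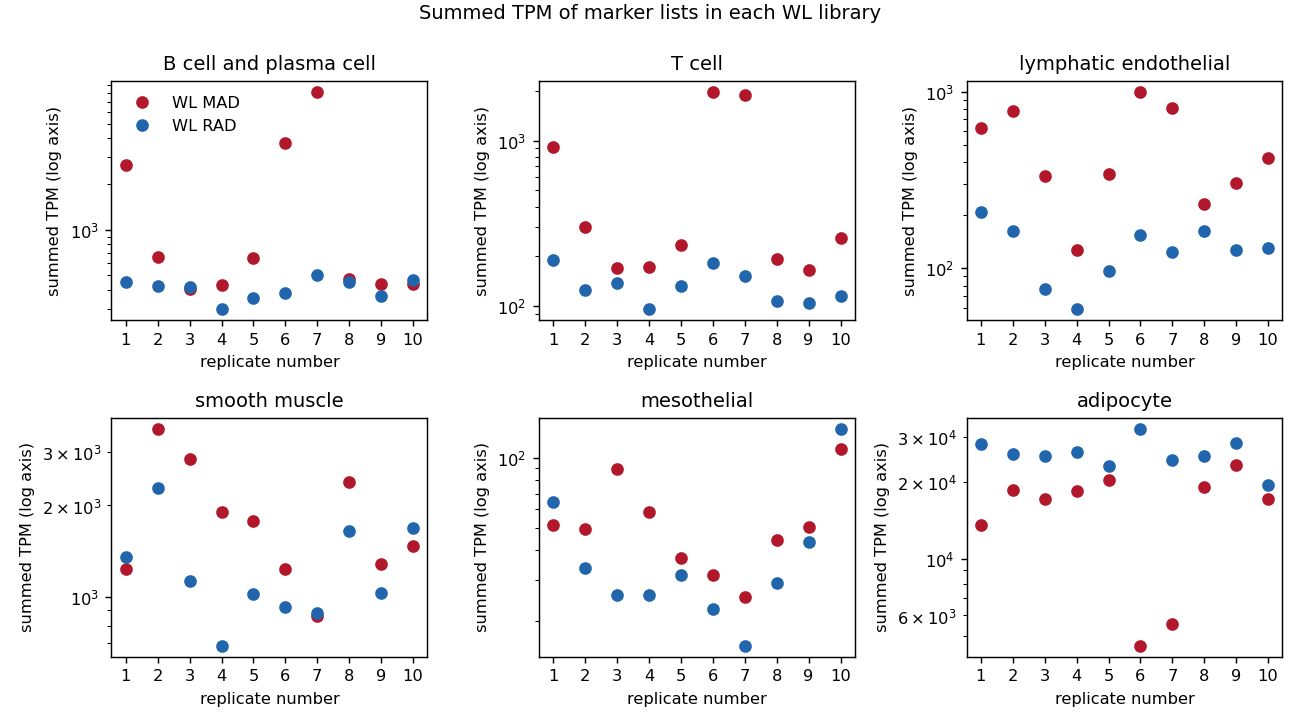
Summed TPM of 6 marker lists in each library by replicate number, on log axes (red, WL MAD; blue, WL RAD). MAD libraries 1, 6 and 7 reach 2682 to 8119 TPM for B cell and plasma cell genes and fall to 4559 to 13515 TPM for adipocyte genes. The lymphatic endothelial sums are higher in MAD at each number.

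Adipocyte genes leaned towards RAD, and few passed the test. Of 14 tested, 13 had a positive log2 fold change, with a median of 0.55, and only LEP and FABP4 were called. LEP, the satiety hormone leptin, was 348 to 1004 TPM in RAD (median 585) and 90 to 564 TPM in MAD (median 316), with overlap. Its log2 fold change was 0.92 ± 0.281 (edgeR adjusted p = 0.041), and the adjusted p ranged from 0.021 to 0.084 when each library was left out in turn. The call was lost without any of MAD 1, 2, 3, 6 or 7 or RAD 4, 7, 8, 9 or 10. FABP4, the fatty acid carrier of adipocytes, had medians of 13902 TPM in RAD and 9243 TPM in MAD (log2 fold change 0.81 ± 0.242, edgeR adjusted p = 0.038). Its call was lost with the block (edgeR adjusted p = 0.059) and without any of MAD 1, 3 or 7 or RAD 1, 4, 6, 7 or 8 (up to 0.072).

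With the replicate block, 7 of the 14 adipocyte genes were higher in RAD. These included ADIPOQ, the hormone adiponectin, at a log2 fold change of 0.88 ± 0.209 (edgeR adjusted p = 0.015, against 0.15 without the block), PLIN1, the lipid droplet coat protein, at 0.69 ± 0.165 (0.015 against 0.2), and PPARG, the master factor of adipogenesis, at 0.64 (0.017 against 0.12). No adipocyte gene was called without MAD libraries 1, 6 and 7, when 1826 of all PCGs had an unadjusted p below 0.05 by edgeR, and LEP had a log2 fold change of 0.66 with an adjusted p of 0.24. Without pairs 1, 6 and 7 and with the block, 1 adipocyte gene was called, and LEP had 0.71 (edgeR adjusted p = 0.0062). The lower adipocyte sums of those libraries moved with their higher lymphocyte sums, and their part in these calls was otherwise not tested. In the thermogenic list, TBX1, TMEM26, PPARGC1A and UCP2 were higher in MAD among 12 tested, and UCP3 was higher in RAD. Over all PCGs the shares were 5.76% and 1.55%. Without MAD libraries 1, 6 and 7, 2 members were called higher in MAD and none in RAD, against 1.77% and 0.395% of all PCGs. PPARGC1A, a coactivator of mitochondrial genes, had a log2 fold change of -1.35 with all libraries and -1.49 without the 3, and the second did not pass (edgeR adjusted p = 0.069). UCP2, a mitochondrial carrier, went from -1.58 to -0.36 (0.63). UCP2 also lost its call with the block (edgeR adjusted p = 0.076) and without any of MAD 1, 6 or 7 or RAD 3, 7, 8 or 9, and PPARGC1A without any of MAD 5 or 7 or RAD 2, 7, 8 or 9.

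The remaining lists showed few or no calls in the main fit. There, edgeR called no gene in the blood endothelial (13 tested), Schwann and nerve (10) and IGF axis (11) lists. The same held for the interferon-stimulated (17), immediate early (18) and mitochondria-encoded (12) lists. In that fit, 3887 of all PCGs had an unadjusted p below 0.05 by edgeR. With the replicate block, Schwann and nerve, IGF axis and immediate early each had 1 call higher in RAD, and interferon-stimulated 1 higher in MAD. Of 14 proliferation genes, 1 was higher in MAD and 9 with the block, against 5.76% and 7.3% of all PCGs. Of 14 de novo lipogenesis genes, 1 was higher in RAD and 4 with the block, against 1.55% and 3.68%. The mitochondria-encoded genes had a median log2 fold change of -0.51 and summed to 10626 to 32309 TPM in MAD and 6792 to 25458 TPM in RAD. In the collagen list, COL1A2 and COL6A6 were higher in RAD (log2 fold change 1.38 and 1.54) and COL6A5 was higher in MAD (-1.91), among 17 tested. COL1A2 had a log2 fold change of 1.17 without MAD libraries 1, 6 and 7 and was not called (edgeR adjusted p = 0.081), but was called without pairs 1, 6 and 7 with the block (1.13, 0.002), and 7 collagen genes were higher in RAD with the block. CD74, the chaperone of MHC class II, was 891 to 2263 TPM in MAD (median 1347) and 609 to 1241 TPM in RAD (median 881), and its log2 fold change of -0.75 (edgeR adjusted p = 0.027) went to -0.40 without MAD libraries 1, 6 and 7 and was not called (0.31), as it was without any of MAD 1, 6 or 7 or RAD 8 or 9.

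**Figure D4:**
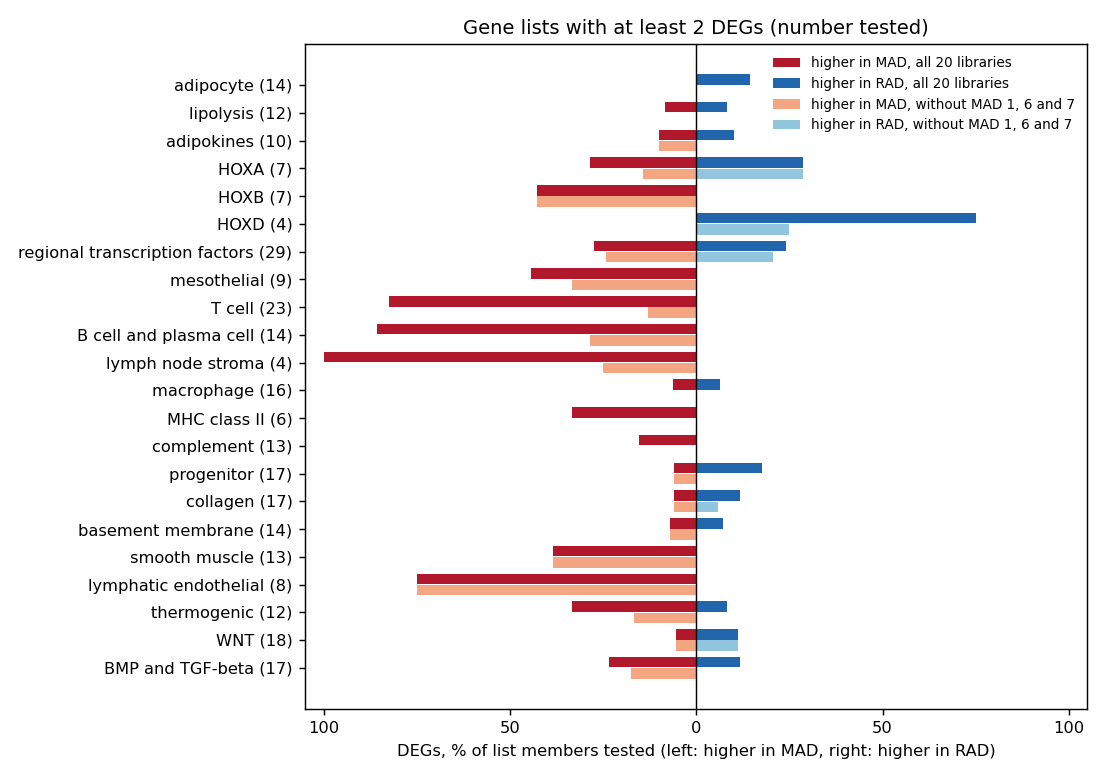
Share of the tested members of each list with at least 2 DEGs that were higher in MAD (to the left, red) or in RAD (to the right, blue), with all 20 libraries (dark) and without MAD libraries 1, 6 and 7 (light); the number tested stands beside each name. In these fits, which have no block, the T cell bar falls from 19 to 3 of 23, whereas the lymphatic endothelial bar is at 6 of 8 both ways. Without pairs 1, 6 and 7 and with the replicate block, which is not drawn, 19 T cell genes were called higher in MAD.

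The depot difference after weight loss was next set beside that of the WG pigs (36 MAD and 39 RAD libraries) and the NC pigs (12 and 12). Both comparisons used the same WL libraries. The difference had the same sign in all 3 groups for the regional factors named next. NKX2-3 had a log2 fold change of -8.02 in WG and -9.45 in NC, TCF21 of -4.61 and -4.41, and ALX1 of 7.31 and 7.22. HOXA9 had 2.44 and 4.02, against 2.68 in WL, and FOXP2 had -2.21 and -2.10. None of these 5 differed from its WL value past the threshold in the test of the difference, where the smallest adjusted p by edgeR was 0.11, for HOXA9 against NC.

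The difference between depots in WL differed from that in WG in 415 of 14066 PCGs (2.95%, edgeR adjusted p below 0.05), of which 370 were shifted towards MAD in WL and 45 towards RAD. Against NC it differed in 133 of 14363 PCGs (0.926%), 124 of them shifted towards MAD and 9 towards RAD. When MAD libraries 1, 6 and 7 were left out, no PCG passed in either comparison by edgeR, while 302 and 408 had an unadjusted p below 0.05. With all libraries, the counts were 68 and 2 by limma, 911 and 5 with the replicate block, and 380 and 0 with the share of TPM on PCGs as a covariate, the last with 1113 at an unadjusted p below 0.05. Against WG, 479 of the 911 were shifted towards MAD and 432 towards RAD with the block, and 38 and 30 of the 68 by limma. TNFRSF9 had a log2 fold change of -4.74 in WL, -0.78 in WG and 0.22 in NC, and CCL17, a chemokine of dendritic cells, had -4.07, -0.60 and 1.06. SPIB, a transcription factor of B cells and plasmacytoid dendritic cells, had -4.55, -1.18 and 0.47. In WL, MAD libraries 1, 6 and 7 held 9.06, 25.6 and 37.5 TPM of TNFRSF9, and the other MAD libraries 0.0697 to 4.29 TPM. They held 11.5, 88.4 and 87.6 TPM of CCL17, against 0 to 9.74 TPM, and 21.3, 61.4 and 36.4 TPM of SPIB, against 0.595 to 1.64 TPM. Without the 3, CCL17 had a log2 fold change of -0.98 in WL (edgeR adjusted p = 0.62). The smooth muscle genes went the other way against NC, where DES had -6.98 and ACTG2 -7.46 and the differences of 3.72 and 4.77 passed the test (edgeR adjusted p = 0.046 and 0.036), and without the 3 libraries the differences were 3.52 and 4.46 and were not called. The NC MAD libraries reached 2318 TPM for DES and 3814 TPM for ACTG2, against medians of 50.8 and 35.3 TPM. The WG MAD libraries reached 136 TPM for MS4A1, against a median of 1.18 TPM.

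The A-B index was compared in 113298 bins of 20 kb on 18 autosomes. Only 16 bins (0.0141%) were in opposite compartments in over 80% of the samples of each depot, 14 of them in A in RAD and 2 in A in MAD. In 15 of the 16, the index differed with a limma adjusted p below 0.05. The bins were picked by the same values, so that this is no separate support. A further 764 bins (0.674%) had a higher index in RAD and 187 (0.165%) a higher index in MAD, within the same compartment, by more than 0.75 and with a limma adjusted p below 0.05. The direction of this split depended on centring. As deposited, the index was higher in RAD by a median of 0.0963 over all bins, and after quantile normalization between the samples the counts were 325 and 335, so that the share higher in RAD went from 80.3% to 49.2%. MAD sample 10 had 46.9% of its bins in A, against 49.2 to 50.4% in the other MAD samples and 49.8 to 50.7% in RAD. The part of that sample in the split was not tested.

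NKX2-3 lay in the bin of largest interest for expression. Its index was 0.814 to 2.31 in MAD (median 1.99) and -0.381 to 0.701 in RAD (median -0.0402). All 10 MAD samples were in compartment A and above every RAD sample, and 5 of the 10 RAD samples were in A. The mean difference was -1.68 (limma adjusted p = 0.00071, and 3.5e-05 after quantile normalization), and the bin was in neither class above because RAD samples fell on both sides of 0. Of the 11 bins within 100 kb of the gene start, 8 had a higher index in MAD past the threshold. FOXP2 covered most of the longest run of differing bins, 26 in a row at chr18:31380001-31900000, with a mean difference of -1.14. At its start the index was -3.33 to -1.67 in MAD and -4.09 to -2.85 in RAD, and so lay in compartment B in all 20 samples while the gene was higher in MAD.

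EN1, ALX1 and FMO2, which were among the DEGs named for a large index difference, had the opposite sign. Other genes higher in RAD did not all share it, as the HOX genes below show. EN1 had an index of 0.907 to 2.37 in RAD (median 1.46) and 0.241 to 1.08 in MAD (median 0.534), with a mean difference of 0.976 (limma adjusted p = 0.0097), and 6 of its 11 nearest bins passed. ALX1 differed by 0.989 (limma adjusted p = 0.03) and lay deep in compartment B in both depots, at a mean of -4.09 in RAD and -5.08 in MAD, although it was expressed in RAD. Of its 11 nearest bins, only 1 passed, the one at its start. FMO2, a flavin monooxygenase, had an index of 2.35 to 3.26 in RAD and 1.1 to 2.05 in MAD, without overlap, and a difference of 1.06 (limma adjusted p = 0.0014). Of its 11 nearest bins, 2 passed. Its expression was also higher in RAD, with medians of 143 and 52 TPM and a log2 fold change of 1.26 ± 0.268 (edgeR adjusted p = 0.0059).

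FABP4 differed by 1.23 in index (limma adjusted p = 0.028), also towards RAD, and missed the threshold with the replicate block (0.06). PPARG differed by 0.849 (limma adjusted p = 0.029), and missed it with the block (0.077) and after quantile normalization (0.052). SLAMF1, a receptor of lymphocytes, went against its expression, with a higher index in RAD by 1.10 (limma adjusted p = 0.019) and a log2 fold change of -3.12 in expression. MAD libraries 1, 6 and 7 held 2.87, 10.1 and 8.61 TPM of SLAMF1. The other MAD libraries held 0.31 to 1.41 TPM and overlapped RAD, at 0.11 to 0.861 TPM. Among the HOX genes called in expression, HOXD3 had an index higher in RAD by 0.72 (limma adjusted p = 0.04, and 0.063 after quantile normalization), and HOXD8 differed by 0.589 (0.095). The differences in index at HOXA9, HOXA10, HOXC9 and HOXB8 were -0.0785, -0.13, -0.0224 and -0.283, and these did not pass the test. TCF21 differed by -0.503 (limma adjusted p = 0.13). MEIS1, a cofactor of HOX proteins picked here after its values were seen, had an index lower in RAD by 1.07 (limma adjusted p = 0.0016), while its expression had a log2 fold change of -0.23 (edgeR adjusted p = 0.23) with all libraries and -0.42 without MAD libraries 1, 6 and 7 (0.0037).

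**Figure D5:**
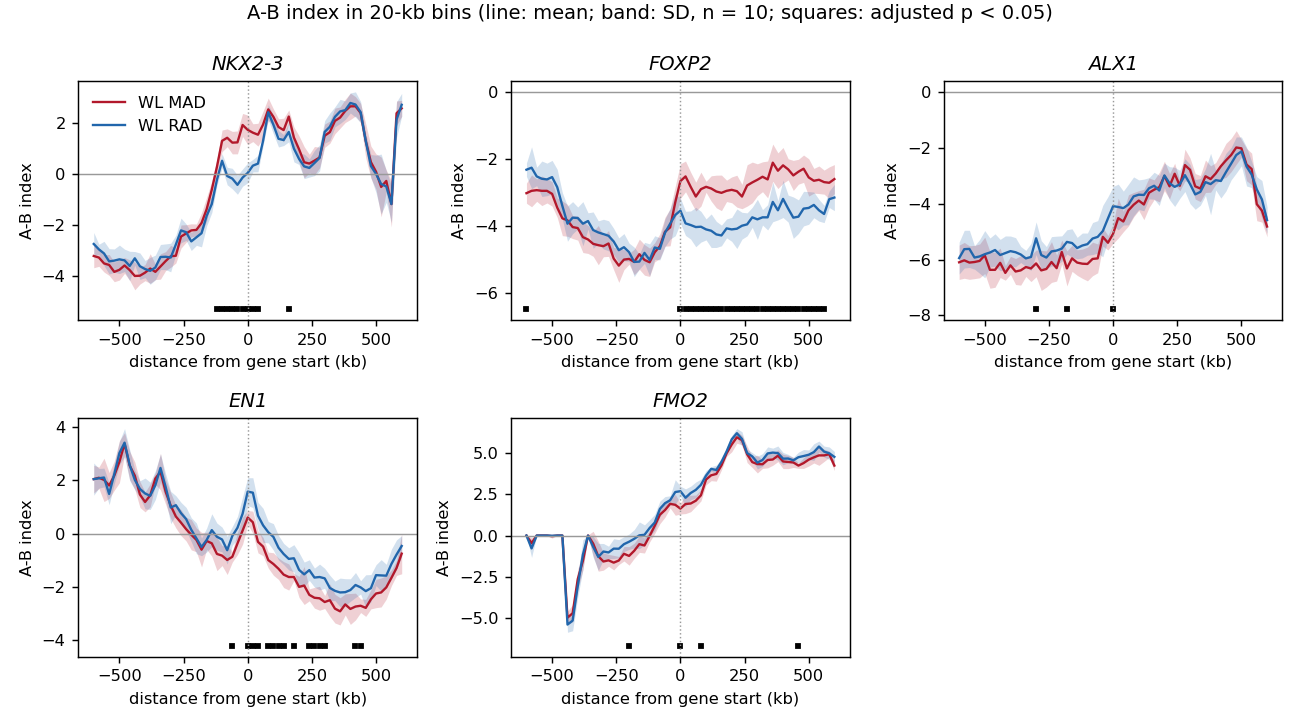
A-B index in 20-kb bins around the starts of 5 genes that differed in expression, against distance from the start in the direction of transcription (line, mean; band, SD; n = 10 per depot; black squares, bins with adjusted p below 0.05). The MAD line is above the RAD line at NKX2-3 and over the body of FOXP2, and below it at EN1, ALX1 and FMO2.

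Over the 10541 tested PCGs with a start on an autosome, 61.9% had a higher index in RAD. The share was 79.1% among the 191 DEGs higher in RAD and 52.4% among the 617 DEGs higher in MAD. After quantile normalization the shares were 41.9%, 62.8% and 31.4%. The index passed the test at the start of 110 PCGs, 95 of them higher in RAD (0.901%) and 15 higher in MAD (0.142%). Among the DEGs higher in RAD, 10 of 191 passed with a higher index in RAD and none with a lower one, and among the DEGs higher in MAD, 6 of 617 passed with a higher index in MAD and 2 with a higher one in RAD.

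H3K27ac regions were deposited as 1 table per depot, pooled over 3 WL MAD and 4 WL RAD samples, so that no test could be made. The MAD samples bore replicate numbers 4, 5 and 7, and the input was 1 sample in MAD and 3 in RAD. Number 7 was among the MAD RNA-seq libraries that stood apart, and its part in the pooled regions was not tested. The MAD table held 25450 regions over 529 Mb and that of RAD held 21825 regions over 443 Mb, so that MAD covered more of the genome. Within 10 kb of NKX2-3, MAD had 1 region of 38.4 kb and RAD had none, and TCF21 had 12.4 kb and none. Near EN1, by contrast, RAD had 21.2 kb and MAD 1.6 kb, and near HOXC9 52.8 and 18.2 kb. All these lengths are of whole regions, which can reach far beyond the 10 kb, and they depend on how regions were joined. Near the neighbouring HOXC8, MAD had 48.8 kb in 2 regions and RAD 52.8 kb in 1 region. The HOXC9 region was a super-enhancer in RAD alone, at rank 597. Near CCL21 the MAD region was a super-enhancer of 74.2 kb and the RAD region, of 37.2 kb, was not. In RNA, CCL21 was 24.8, 75.7 and 606 TPM in MAD libraries 4, 5 and 7. HOXD8, which was higher in RAD in expression, had 18.6 kb in MAD and no region in RAD. It was not alone among genes higher in RAD. FBP2 had 122 kb in MAD and 12.4 kb in RAD, and SEMA3C 145 and 63.4 kb. MMP27 and DMRT2 each had 2.4 kb in MAD and no region in RAD. FGF10 and PTGFR had no region in either depot.

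Over all 10903 tested PCGs with a position, 5.7% had a region within 10 kb in MAD alone and 1.98% in RAD alone. Among DEGs higher in MAD these shares were 8.39% and 1.09%, and among DEGs higher in RAD they were 6.15% and 3.59%.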

How the data were processed

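RNA-seq and Hi-C samples of WL MAD and WL RAD (10 each) were grouped by the deposited labels. The authors depleted total RNA of rRNA, made stranded libraries, and estimated abundance with kallisto 0.43.0 and tximport. The deposited values are expected counts and TPM as the authors computed them (17% of the values used are 0), and each estimated count was rounded to a whole number before testing. The deposited A-B index is a score that the authors made from Hi-C matrices balanced by the Knight-Ruiz method and quantile normalized between samples, in bins of 20 kb on Sscrofa11.1. The deposited H3K27ac tables hold the authors' ROSE signal of each stitched region in pooled H3K27ac and input reads. The count and index tables each hold 9 columns of no sample, which were not used.

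The test took PCGs that passed 0.5 TPM in 80% or more of either depot's libraries, and was made with edgeR 4.0.16 (TMM, quasi-likelihood, Benjamini-Hochberg, R 4.3.3), as in the study's own choice of tool and thresholds. The index was tested with limma 3.58.1 per bin. Comparisons with WG and NC tested the difference between the depot differences over all 4 groups. DESeq2 1.42.0, limma on log2(TPM + 0.5), RLE factors, no filter, the share of TPM on PCGs and the replicate block were alternatives, and leaving out libraries was added after seeing the data. The scripts were tested on simulated data.

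MAD and RAD share replicate numbers 1 to 10. After the depot means were removed, the expression of same-numbered samples correlated at 0.241 to 0.684 (median 0.412, other numbers -0.067), all above 0.1, which meets the criterion set for pairing. The main fit has no block, as in the study, and blocked values are given where they change a call of a named gene. The labels do not name the pig.

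The members and gene lists were chosen with earlier results of these data known. Genes were named by rule: the 14 DEGs with a symbol of largest change in each direction with a mean of at least 5 TPM in the higher depot, the 4 DEGs of smallest adjusted p in each list with at least 2 DEGs, all HOX genes tested, PPARG, ADIPOQ, LEP and PLIN1, the 8 of largest difference from WG and from NC, and the 10 DEGs of largest index difference in a differing bin. Of 38 lists, 22 had at least 2 DEGs and 10 had none. Positions were matched by symbol to RefSeq for 13723 of 21280 PCGs. Depth per index bin is not given in the sources used here, and the precision of the index rests on the spread between samples. Intervals on counts cover counting error only. Some results are not reported here.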

Additional observations from a re-analysis of the deposited data

Results flagged for a closer look

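In 38 of 224 groups of 10 values (112 named genes in each depot), 1 library lay farther from the rest than Dixon's 95% value allows, and in each it was the highest. Chance flags about 1 in 20 groups of normally distributed values. TPM was taken here without a log and can be skewed towards high values, so that this rate need not hold. Genes of 1 library are not independent.

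Replicate 2 was the high library most often. In MAD it had 113 TPM of ACTG2, 184 of DES, 390.4 of MYLK, 51.3 of FLT4, 236 of MMRN1, 39.8 of RELN, 26.7 of FOXP2, 9.56 of TBX1 and 3.49 of WNT2. In RAD it had 28.3 TPM of ACTG2, 38.3 of DES, 4.31 of KCNMB1, 1.19 of TBX1, 1.86 of COL4A6, 9.79 of SBSPON, 0.861 of SLAMF1 and 2.12 of TCF7. The smooth muscle genes ACTG2 and DES were thus high under the same number in both depots.

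MAD library 6 had 236 TPM of MS4A1, 179.9 of CD79B, 117 of ECRG4, 65 of ELL3, 8.65 of TNFSF9 and 48.9 of UCP2, and MAD library 7 had 7366 TPM of JCHAIN. Elsewhere in MAD, library 3 was high in GAP43 (6.71 TPM), HOXC5 (3.31) and UPK1B (2.94), library 9 in C1QTNF3 (5.26) and MSX2 (1.77), library 10 in COL1A2 (392), library 5 in HOXA10 (1.77) and library 4 in ONECUT1 (1.2). Elsewhere in RAD, library 1 was high in MMRN1 (38.9 TPM) and MS4A1 (1.18), library 7 in DAPL1 (4.1) and NKX3-2 (0.11), library 9 in FGF10 (14.8) and library 3 in PPARGC1A (2.32).

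The depot difference of WL differed from that of WG in 415 PCGs and from that of NC in 133, by edgeR's test of the difference, and in 0 without MAD libraries 1, 6 and 7 (302 and 408 at an unadjusted p below 0.05). Against WG, the log2 difference was -3.97 for TNFRSF9, -3.53 for MARCO, -3.48 for CCL17, -3.38 for SPIB, -3.33 for each of CCR7, DAPL1 and ECRG4, and -3.19 for TNFRSF4. Against NC, it was -5.60 for CLEC4G, -5.51 for MS4A1, -5.11 for CCL17, -5.00 for SPIB, -4.98 for CCR9, -4.94 for TNFRSF9 and -4.57 for TCF7, and 4.77 for ACTG2.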

How the results depend on the processing

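Against 1018 DEGs (216 higher in RAD and 802 higher in MAD), there were 1530 with the replicate block (513 and 1017, 933 of them shared), 460 by limma on log2(TPM + 0.5) (129 and 331, 453 shared), 637 with the share of TPM on PCGs (492 higher in MAD, 608 shared) and 598 with the block and that share (416 higher in MAD). Without MAD libraries 1, 6 and 7 there were 301 (55 and 246, 278 shared), 322 with the share added (56 and 266), and 669 without pairs 1, 6 and 7 with the block (513 higher in MAD). DESeq2 gave 1300, RLE factors 1002, no filter on low genes 1223 and leaving out RAD 4 and 5 gave 1152. Leaving out each library in turn gave 651 to 1324 calls, 114 to 326 of them higher in RAD and 537 to 998 higher in MAD. The cause of these shifts was not tested. The comparison with WG gave 68 PCGs by limma, 911 with the replicate block and 0 without MAD libraries 1, 6 and 7, and that with NC gave 2, 5 and 0, and 0 with the share. HOXA3, at a log2 fold change of 0.03, reversed to -0.06 without MAD libraries 1, 6 and 7, to -0.01 with the share added, and to -0.11 without RAD 4 and 5. The block ended the calls of FABP4, MARCO and UCP2, and that of SLA-DOA only by the fold required (log2 fold change -0.59 to -0.58, edgeR adjusted p = 0.0015). It added ADIPOQ, PLIN1, PPARG and HOXC8, and changed no other call of a named gene. Leaving out MAD libraries 1, 6 and 7 ended 38 calls of named genes, limma 26 and DESeq2 1.

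In the A-B index, switches went from 16 to 127 at 70% of samples. Bins that differed within a compartment went from 951 to 191 at an adjusted p below 0.01 (130 higher in RAD and 61 in MAD), to 1785 at a difference above 0.5 (1508 higher in RAD), and to 325 higher in RAD and 335 in MAD after quantile normalization. Gene starts went from 95 higher in RAD and 15 in MAD to 44 and 43 after quantile normalization, and to 388 genes (348 and 40) with the mean over all bins of a gene. With the replicate block the index gave 687 and 185 bins. There the criterion for pairing, every pair above 0.1, was not met: 6 of 10 same-numbered pairs were above it (median 0.184, other numbers -0.0257). H3K27ac, pooled per depot, gave no error.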

Other observations

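Complement and BMP genes outside the account above also differed. C7, a component of the membrane attack complex, was 72.7 to 376 TPM in MAD (median 197) and 37.6 to 154 TPM in RAD (median 75.7), with overlap, at a log2 fold change of -1.18 ± 0.293 (edgeR adjusted p = 0.015, and -1.01 with 0.12 without MAD libraries 1, 6 and 7). BMP3, a secreted BMP antagonist, was 0.31 to 2.06 TPM in MAD (median 1.29) and 0.0447 to 0.54 TPM in RAD (median 0.286), at -2.17 ± 0.39 (edgeR adjusted p = 0.0017, and 0.0026 without them). GDF6, a BMP ligand, had medians of 1.9 TPM in MAD and 0.603 TPM in RAD, at -1.71 ± 0.329 (edgeR adjusted p = 0.0031, and 0.012 without them). MARCO, a scavenger receptor of macrophages, had medians of 4.27 and 0.854 TPM, at -3.80 ± 0.897, and was not called with the replicate block (edgeR adjusted p = 0.084) or without the 3 libraries (0.44).

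Of the 16 bins in opposite compartments, 2 held a gene start, both in A in 9 of 10 RAD samples and 1 of 10 MAD samples, and both were picked after their values were seen. ONECUT1, a homeobox factor, differed in index by 0.532 (limma adjusted p = 0.085). MSX2, a homeobox factor of limb and skull mesenchyme, differed by 0.846 (limma adjusted p = 0.014). Neither gene passed the filter on expression, and their TPM overlapped between the depots.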
